A study of Capra hircus with 6 samples.

Results

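The genes described here mark dividing cells (MKI67, TOP2A, CDK1, CCNB1 and PCNA) and young neurons or neural progenitors (DCX, SOX11, SOX4, NES and IGF2BP1). These 10 genes were listed by name, with earlier results of these data known. Transcripts were found for 9 of them, 16 of the 30679 transcripts and 9 of the 20225 genes in the mRNA table. No transcript carried the identifier of SOX4, which was not analysed here. Hypothalamus came from 6 female Anhuai goats housed alike, 3 pubertal goats of 4.5 to 5 months in the late follicular phase and 3 prepubertal goats of 2.5 to 3 months, and each goat gave 1 strand-specific library depleted of ribosomal RNA. Puberty was scored by signs of estrus. Age, puberty and cycle phase changed together and cannot be told apart. Values are FPKM, fragments divided by transcript length and by the mapped fragments of the library, summed in each library over all transcripts of a gene. Where 3 values follow each other for a stage, they are those of replicates 1, 2 and 3.

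A dividing cell copies its DNA in S phase and separates the copies in mitosis. Genes of S phase are switched on by E2F factors, and many genes of mitosis are held down in resting cells by the DREAM complex and activated by MYBL2 and FOXM1. In the postnatal hypothalamus the cells that still divide are mainly glia, among them oligodendrocyte precursors, and progenitors among the tanycytes that line the third ventricle. A newborn neuron carries microtubule proteins such as doublecortin and transcription factors of the SoxC group while it migrates and extends its processes, and doublecortin persists in some mature neurons.

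The median log2(FPKM + 1) of a library was between 3.80 and 3.83 over genes with a mean of at least 1 FPKM, and 2 libraries correlated with a Pearson r between 0.967 and 0.987 across these genes, which are not independent replicates. Of 13 genes listed for hypothalamic neurons 9 were in the table, led by PMCH, the precursor of melanin-concentrating hormone, at a mean of 1493 FPKM. AVP, the vasopressin gene, was listed at 0 in all 6 libraries, so a 0 in this table was not read as absence. A single transcript held from 21.4% to 52.7% of the FPKM sum of a library, which limits how far FPKM can be compared between libraries. Read counts are not part of the table, and the depth of each value is therefore unknown. In bulk tissue, fewer cells of a type and less RNA per cell cannot be told apart.

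For none of the tested members was a difference between the stages found beyond the spread of the goats. Of the 8 members with a mean of at least 0.1 FPKM, 0 had an adjusted p under 0.05 in limma (0% of all genes tested did) and 0 an unadjusted p under 0.05, against 5.16% of all 16397 genes tested. The stages separated without overlap for 0 of the 8, against 9.75% of all genes. Among all genes, 846 had an unadjusted p under 0.05, 575 higher and 271 lower in the pubertal goats, which is 68.0% higher. The split moved with the scaling, to 55.1% higher after quantile normalization and to 79.5% higher when transcripts under 200 nt were left out and libraries rescaled. It turned round without pubertal replicate 1, to 984 higher and 1239 lower genes, 44.3% higher. The log2 fold changes of the 8 members, pubertal minus prepubertal, ran from -0.19 to 0.27 with a median of -0.02. All 8 lay between the 5th and the 95th percentile of all genes, -0.22 and 0.35. Their 95% intervals reached from -0.56 at the lowest to 0.66 at the highest in units of log2(FPKM + 1). Adding 1 FPKM shrinks the change of low genes such as MKI67.

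**Figure D1:**
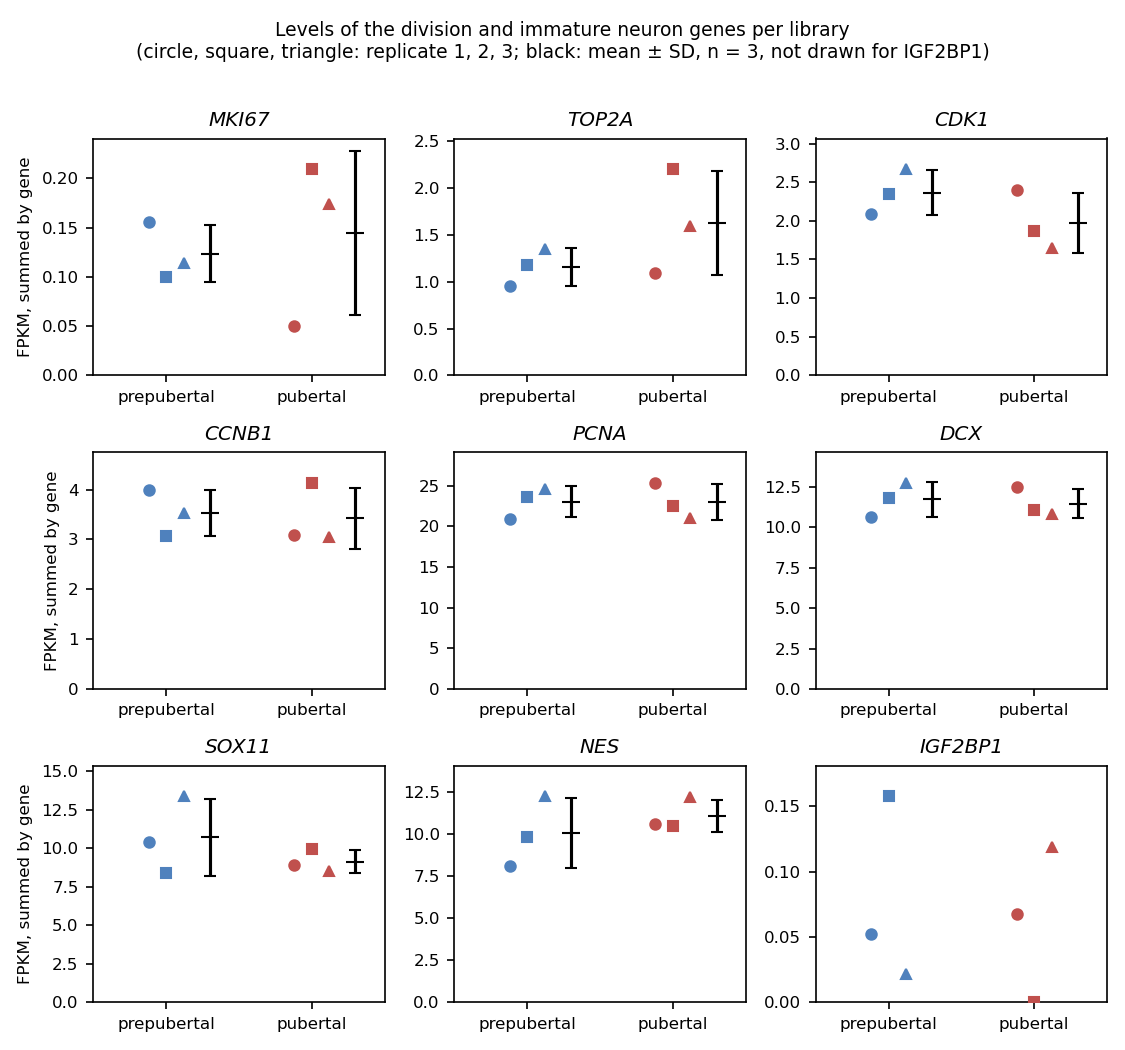
FPKM summed by gene (vertical axes, from 0) in the 3 prepubertal (blue) and 3 pubertal (red) libraries for the 9 members found. Circles, squares and triangles are replicates 1, 2 and 3, and the black bar is the mean with its SD (n = 3), not drawn for IGF2BP1. The stages overlap in every panel, and pubertal replicate 1 is the lowest library for MKI67 at 0.0506 FPKM.

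Among the division genes, MKI67 encodes Ki-67, a protein that coats mitotic chromosomes and is lost in resting cells. Pubertal values of MKI67 were 0.0506, 0.209 and 0.174 FPKM and prepubertal values 0.155, 0.0997 and 0.114 FPKM. Both the lowest and the highest value, 4.13-fold apart, came from pubertal goats. The means were 0.144 ± 0.0831 and 0.123 ± 0.0289 FPKM (SD, n = 3 each), and the log2 fold change was 0.02 (95% interval -0.22 to 0.27, adjusted p = 0.993, limma). With a pseudocount of 0.1 it was 0.07 with a standard error of 0.47, too wide to tell a change of MKI67 in either direction. Only 20.1% of the genes in the table had a lower mean than MKI67.

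TOP2A encodes the topoisomerase that untangles DNA before chromosomes separate. It read 1.10, 2.20 and 1.60 FPKM in the pubertal libraries and 0.950, 1.18 and 1.35 FPKM in the prepubertal ones. Pubertal replicates 2 and 3 lay above every prepubertal library, and pubertal replicate 1 lay among them. The pubertal mean of 1.63 ± 0.553 FPKM was 1.41 times the prepubertal mean of 1.16 ± 0.203 FPKM (SD, n = 3 each). With a log2 fold change of 0.27 (95% interval -0.12 to 0.66, adjusted p = 0.962, limma), TOP2A had the largest difference of the 8 tested members. Without pubertal replicate 1 this was 0.42, with an unadjusted p of 0.0300 and an adjusted p of 0.323 in limma, and without pubertal replicate 2 it was 0.11.

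CDK1 encodes the kinase that drives entry into mitosis, and CCNB1 encodes cyclin B1, its partner. For CDK1 the pubertal goats gave 2.40, 1.87 and 1.65 FPKM and the prepubertal goats 2.09, 2.35 and 2.67 FPKM. In 2 of the 9 pairs of a pubertal and a prepubertal library the pubertal value was higher, against 7 of 9 for TOP2A. Its log2 fold change was -0.18 (95% interval -0.50 to 0.13, adjusted p = 0.962, limma). CCNB1 stood at 3.08, 4.13 and 3.04 FPKM in pubertal goats, compared with 3.99, 3.08 and 3.53 FPKM in prepubertal goats. Its highest and its lowest library were both pubertal, and its log2 fold change was -0.04 (95% interval -0.37 to 0.29, adjusted p = 0.991, limma).

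PCNA encodes the sliding clamp of DNA polymerase, which also serves DNA repair in cells that do not divide. Pubertal libraries held 25.3, 22.5 and 21.0 FPKM of PCNA and prepubertal libraries 20.9, 23.6 and 24.6 FPKM. Pubertal replicate 1 was the highest and prepubertal replicate 1 the lowest library. The 95% interval of the log2 fold change, -0.25 to 0.24, enclosed 0 almost in its middle (adjusted p = 0.999, limma), and it allows a pubertal value between 0.843 and 1.18 times the prepubertal one. PCNA was the most abundant member, and its coefficient of variation over the 6 libraries was 7.97%, against 42.5% for MKI67, 32.5% for TOP2A, 17.3% for CDK1 and 14.1% for CCNB1.

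Among the neuronal genes, DCX encodes doublecortin, the microtubule protein of migrating neurons. Its sums were 12.5, 11.0 and 10.8 FPKM in pubertal goats, with 10.6, 11.8 and 12.8 FPKM in prepubertal goats. Both stages covered nearly the same range, and the log2 fold change was -0.03 (95% interval -0.28 to 0.22, adjusted p = 0.990, limma). DCX varied least of the members, with a coefficient of variation of 7.78% over the 6 libraries.

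SOX11 encodes a SoxC transcription factor of young postmitotic neurons. Pubertal goats had 8.93, 9.94 and 8.54 FPKM of SOX11, and prepubertal goats had 10.4, 8.39 and 13.4 FPKM. The prepubertal goats held the lowest and the highest value, and the log2 fold change was -0.19 (95% interval -0.56 to 0.18, adjusted p = 0.962, limma). Without prepubertal replicate 3, the highest library, it was -0.03, and without prepubertal replicate 2, the lowest, it was -0.34. The only SOX11 transcript in the table was 430 nt long, so its FPKM rest on a short stretch.

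NES encodes nestin, an intermediate filament protein of neural progenitors that vessel cells and reactive glia also make. Its levels were 10.6, 10.5 and 12.2 FPKM at the pubertal stage and 8.09, 9.80 and 12.2 FPKM at the prepubertal stage. Prepubertal replicate 1 was the lowest library, and replicate 3 of either stage was the highest of its stage. The log2 fold change was 0.14 (95% interval -0.20 to 0.48, adjusted p = 0.962, limma). Without prepubertal replicate 1 it was 0.011, and without prepubertal replicate 3 it was 0.28. Vessel markers had the same direction: all 8 tested genes of the endothelium and pericyte list had a log2 fold change above 0, with a median of 0.32 that was 0.15 without pubertal replicate 3, and 2 were higher at an unadjusted p under 0.05, 25% against 3.51% of all genes. Their summed level was between 119.7 and 178.9 FPKM in pubertal and between 90.19 and 119.3 FPKM in prepubertal libraries. Their part in the values of NES was not tested.

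IGF2BP1 encodes an RNA binding protein of fetal tissues that stabilises growth-related mRNAs. It was listed at 0.0675, 0 and 0.119 FPKM in pubertal and 0.0522, 0.157 and 0.0218 FPKM in prepubertal goats. These values overlapped and stayed below 0.1 FPKM on average, so that no test was made, and 17.5% of the genes in the table had a lower mean.

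**Figure D2:**
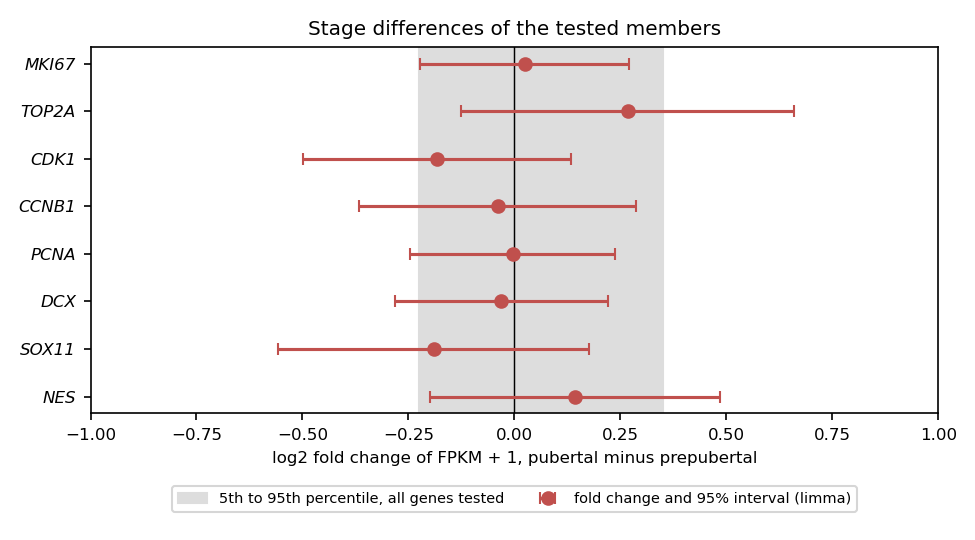
Log2 fold change of FPKM + 1, pubertal minus prepubertal (horizontal axis), for the 8 tested members, with the 95% interval from limma as a bar. The grey band spans the 5th to the 95th percentile of all genes tested, -0.22 to 0.35. All 8 points lie inside the band, and all 8 intervals cross 0.

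From the highest to the lowest level, the order was PCNA, DCX, NES, SOX11, CCNB1, CDK1, TOP2A, MKI67 and IGF2BP1. Means over the 6 libraries were 23.0, 11.6, 10.6, 9.93, 3.48, 2.17, 1.40, 0.134 and 0.0696 FPKM in this order. PCNA lay above DCX, SOX11 above CCNB1, CCNB1 above CDK1 and TOP2A above MKI67 in 6 of 6 libraries. For each of these 4 pairs an exact permutation test over the signs gave a two-sided p of 0.03125, the smallest that 6 libraries allow, and 0.0625 when adjusted over all 8 neighbouring pairs. DCX lay above NES in 5 of 6 libraries, NES above SOX11 in 4, CDK1 above TOP2A in 5 and MKI67 above IGF2BP1 in 4 (exact permutation p between 0.09375 and 0.5). Thus none of the 8 pairs had an adjusted p under 0.05. The order was taken from the means of the same 6 libraries, so these p-values describe it and are no independent test.

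DCX, CDK1 and IGF2BP1 have several transcripts and the other members found have 1 each. The DCX transcripts XM_005700251.2 and XM_005700252.2 differ in length by 15 nt, so the split of fragments between them is uncertain. XM_005700251.2 held 3.84, 2.85 and 3.38 FPKM in pubertal libraries, while prepubertal libraries held 2.54, 4.85 and 5.49 FPKM. Its share of the sum had a mean of 29.2% in pubertal and 36.0% in prepubertal goats, a difference of -6.76 percentage points with an exact two-sided permutation p of 0.4, where 3 against 3 libraries allow no less than 0.1. The lowest share, 23.9%, was in prepubertal replicate 1 and the highest, 43.1%, in prepubertal replicate 3. Without prepubertal replicate 1 the log2 fold change of XM_005700251.2 was -0.51 instead of -0.24, with an unadjusted p of 0.0319 and no adjusted p under 0.05 in limma.

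CDK1 had 6 transcripts of 3255 to 3329 nt. The most abundant, XM_013975590.1, had 0.825, 1.54 and 1.65 FPKM in pubertal and 0.994, 1.22 and 1.21 FPKM in prepubertal goats. The next, XM_005699055.2, had 1.29, 0.169 and 0 FPKM in pubertal goats and 0.562, 0.385 and 1.46 FPKM in prepubertal goats. The share of XM_013975590.1 in the sum ran from 34.3% in pubertal replicate 1 to 99.99% in pubertal replicate 3 (exact permutation p = 0.4 between the stages). On this transcript alone the log2 fold change of CDK1 was 0.11, opposite in sign to that of the sum. Of 11 member transcripts tested in limma, 0 had an adjusted p under 0.05 and 0 an unadjusted p under 0.05, against 4.87% of 23821 transcripts.

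**Figure D3:**
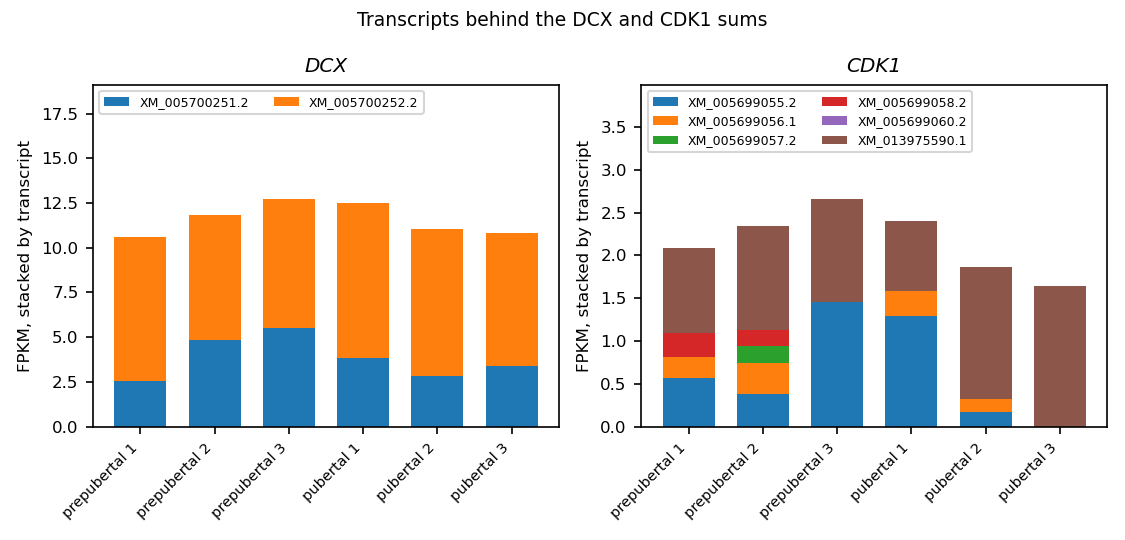
FPKM of each transcript, stacked (vertical axes, from 0), for DCX and CDK1 in the 3 prepubertal and 3 pubertal libraries (horizontal axes). XM_005700252.2 is the larger part of DCX in every library, while XM_013975590.1 makes up between 34.3% and 99.99% of CDK1.

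Whether members vary together between goats was measured on log2(FPKM + 1) over the 6 libraries for the 28 pairs of tested members. Pairs of division genes had a Pearson r from -0.78 to 0.80 with a median of -0.14, and 4 of the 10 were above 0. MKI67 and TOP2A reached 0.69 (exact permutation p = 0.125, adjusted over the 28 pairs 0.500), with a Spearman rho of 0.66 (p = 0.175, exact, adjusted 0.700). Leaving out pubertal replicates 1 and 2, which lay farthest from the median of MKI67, brought r to 0.22, so it rests on those libraries.

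PCNA and DCX were the closest pair, with r = 0.96 (exact permutation p = 0.0125, adjusted 0.350) and rho = 0.94 (exact permutation p = 0.0167, adjusted 0.467), and the relation fails the correction. Without replicate 1 of both stages r was 0.94 over 4 libraries, and with the mean of each stage subtracted it was 0.97. CDK1 and DCX gave r = 0.86 (exact permutation p = 0.0403, adjusted 0.415) and rho = 0.83 (exact permutation p = 0.0583, adjusted 0.635), and r = 0.80 without replicate 3 of both stages. A stage holds 3 libraries, too few for an r of its own.

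**Figure D4:**
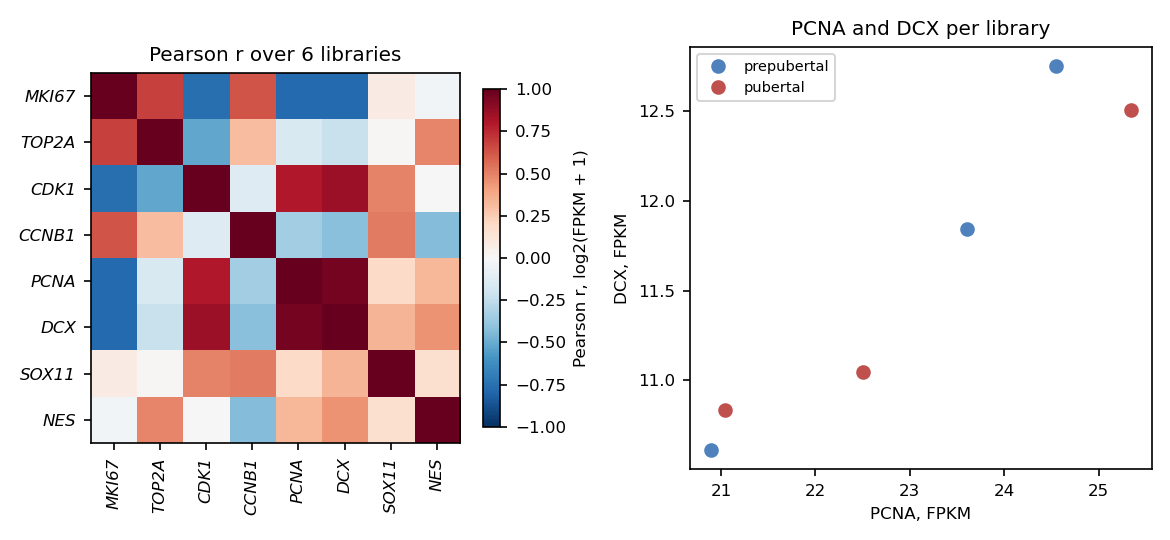
Left, Pearson correlation over the 6 libraries, on log2(FPKM + 1), for each pair of the 8 tested members (colour scale from -1 to 1). Right, FPKM of DCX (vertical axis) against PCNA (horizontal axis), neither axis starting at 0, for pubertal (red) and prepubertal (blue) libraries. Libraries of both stages lie at the high and at the low end of the same rising row of points (r = 0.96 on the log2 scale).

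Over the 6 libraries, the genes most like MKI67 among 14081 with a mean of at least 1 FPKM were TFE3, SLC3A2 and DGKZ, with a Pearson r of 0.996, 0.994 and 0.993, and 68 genes had an r above 0.95. Those most like DCX were WDR3, ACAD11 and PLPPR5, with an r of 0.984, 0.976 and 0.974, and 16 of 14080 genes passed 0.95. MKI67 itself, at a mean of 0.134 FPKM, lies below the minimum of 1 FPKM set for the other genes. The named genes were picked for their r, the points share 6 libraries, and these values describe likeness only.

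The members were set beside other genes of the same processes. All 38 genes listed for DNA replication were tested, and 18 had a log2 fold change above 0 and 20 below, with a median of -0.03. In limma 0 had an adjusted p under 0.05, and the 1 with an unadjusted p under 0.05 was higher, 2.63% of the list against 3.51% of all genes. This was CDT1, which helps to load the replicative helicase, with 1.21, 1.12 and 1.45 FPKM in pubertal and 0.616, 0.550 and 1.07 FPKM in prepubertal goats. The stages did not overlap for CDT1, and its log2 fold change was 0.38 (95% interval 0.05 to 0.71, adjusted p = 0.887, limma).

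Of 59 genes listed for mitosis 57 were tested, and 36 had a log2 fold change above 0 and 21 below, 63.2% above 0 against 49.8% of all genes. The median was 0.08, and after quantile normalization it was -0.00050. For 7 genes the pubertal libraries lay above the prepubertal ones without overlap, 12.3% of the list against 5.91% of all genes, and for 1 they lay below, against 3.84%. In limma 0 had an adjusted p under 0.05 and 1 was higher at an unadjusted p under 0.05, 1.75% of the list against 3.51% of all genes. The latter was TPX2, a spindle assembly factor, with 3.89, 4.12 and 3.73 FPKM in pubertal and 2.92, 3.39 and 2.98 FPKM in prepubertal goats and a log2 fold change of 0.26 (95% interval 0.01 to 0.52, adjusted p = 0.958, limma). ANLN, an actin binding protein of the cleavage furrow that myelinating glia also make, was the most abundant gene of the list at a mean of 48.3 FPKM.

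Of 26 genes that govern entry into and exit from the cycle 24 were tested in limma, with 0 adjusted p under 0.05, and 3 higher (12.5% against 3.51% of all genes) and 1 lower (4.17% against 1.65%) at an unadjusted p under 0.05. CCND1, the cyclin D1 that couples growth signals to the cycle, had 18.1, 15.7 and 18.6 FPKM in pubertal and 12.3, 14.8 and 13.9 FPKM in prepubertal goats (log2 fold change 0.33, adjusted p = 0.824, limma). CDKN2B, an inhibitor of the kinases that bind D cyclins, had 0.357, 0.763 and 0.734 FPKM in pubertal and 0.267, 0.339 and 0.219 FPKM in prepubertal goats (log2 fold change 0.33, adjusted p = 0.938, limma). MYC, a growth-promoting transcription factor, had 1.32, 1.29 and 2.05 FPKM in pubertal and 1.12, 0.920 and 1.01 FPKM in prepubertal goats (log2 fold change 0.33, adjusted p = 0.961, limma). The pubertal libraries of these 3 genes, 1 inhibitor and 2 promoters of the cycle, all lay above the prepubertal ones. Adding 1 FPKM shrinks the change of the lower genes. The pubertal mean was 1.28 times the prepubertal mean for CCND1, 2.25 times for CDKN2B and 1.53 times for MYC. With CDK6, 4 genes of the list were higher without overlap, 16.7% against 5.91% of all genes, and LIN9 and RBL1 were lower without overlap, 8.33% against 3.84%. LIN9, a subunit that the DREAM complex shares with the activating MYBL2 complex, had an unadjusted p under 0.05, with 2.78, 2.48 and 2.31 FPKM in pubertal and 3.50, 3.78 and 3.08 FPKM in prepubertal goats (log2 fold change -0.34, adjusted p = 0.874, limma). CCND2, the cyclin D2 of progenitors, was the most abundant at 57.0 ± 3.78 and 56.4 ± 4.08 FPKM (SD, n = 3 each).

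Of 36 genes known from immature neurons 28 were in the table, and TUBB3, TUBB2B and CD24 were among those missing. In all, 27 were tested, with 10 log2 fold changes above 0 and 17 below and a median of -0.03. In limma 0 had an adjusted and 0 an unadjusted p under 0.05. The stages did not overlap for 2 genes, both lower, 7.41% of the list against 3.84% of all genes. TMSB10, an actin binding thymosin, was one and had 2048, 1758 and 1757 FPKM in pubertal and 2153, 2238 and 2217 FPKM in prepubertal goats (log2 fold change -0.25, adjusted p = 0.962, limma). STMN1, which destabilises microtubules, was the other, with 676, 684 and 658 FPKM in pubertal and 702, 698 and 739 FPKM in prepubertal goats. TMSB10, at a mean of 2028 FPKM, weighed most in the summed level of the list, which therefore does not speak for each gene. This sum did not overlap either and was lower in pubertal goats. It was 3576 to 4091 FPKM in pubertal and 4243 to 4342 FPKM in prepubertal libraries. Markers of mature neurons had the same direction, with log2 fold changes below 0 in 13 of 13 genes, a median of -0.14 that was -0.041 without prepubertal replicate 3 and -0.063 without pubertal replicate 3, and summed levels between 1726 and 2031 FPKM in pubertal and between 1939 and 2208 FPKM in prepubertal libraries. Their part in the immature neuron values was not tested.

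Of 25 genes for neural progenitors and radial glia 19 were tested, with 12 log2 fold changes above 0 and 7 below. Their median was 0.04, and -0.055 without pubertal replicate 3. In limma 0 had an adjusted p under 0.05, and 2 were lower at an unadjusted p under 0.05, 10.5% of the list against 1.65% of all genes. FABP7, the lipid binding protein of radial glia and young astrocytes, had 15.6, 28.6 and 31.0 FPKM in pubertal and 39.7, 47.9 and 48.6 FPKM in prepubertal goats. Every pubertal library lay below every prepubertal one, with a log2 fold change of -0.88 (95% interval -1.42 to -0.35, adjusted p = 0.767, limma). Without pubertal replicate 1, the lowest library, the log2 fold change of FABP7 was -0.58. HOPX, a homeodomain protein of radial glia and astrocytes, had 287, 213 and 277 FPKM in pubertal and 362, 349.7 and 286 FPKM in prepubertal goats, and its stages overlapped. The summed level of the 8 astrocyte genes was between 6197 and 6473 FPKM in pubertal and between 6109 and 6398 FPKM in prepubertal libraries.

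IGF2BP1 has 2 paralogs, and both were above the minimum. IGF2BP3 had 1.23, 1.09 and 1.35 FPKM in pubertal and 2.08, 1.62 and 2.45 FPKM in prepubertal goats, without overlap, and a log2 fold change of -0.45 (95% interval -0.76 to -0.14, adjusted p = 0.795, limma). IGF2BP2 overlapped between the stages, with a log2 fold change of 0.10 (95% interval -0.20 to 0.39). Of the 12 fetal RNA binding genes and partners in this list 8 were tested, with 0 adjusted calls in limma, 5 log2 fold changes above 0 and 3 below, and a median of 0.05. LIN28A and HMGA2 were listed at 0 in all 6 libraries.

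**Figure D5:**
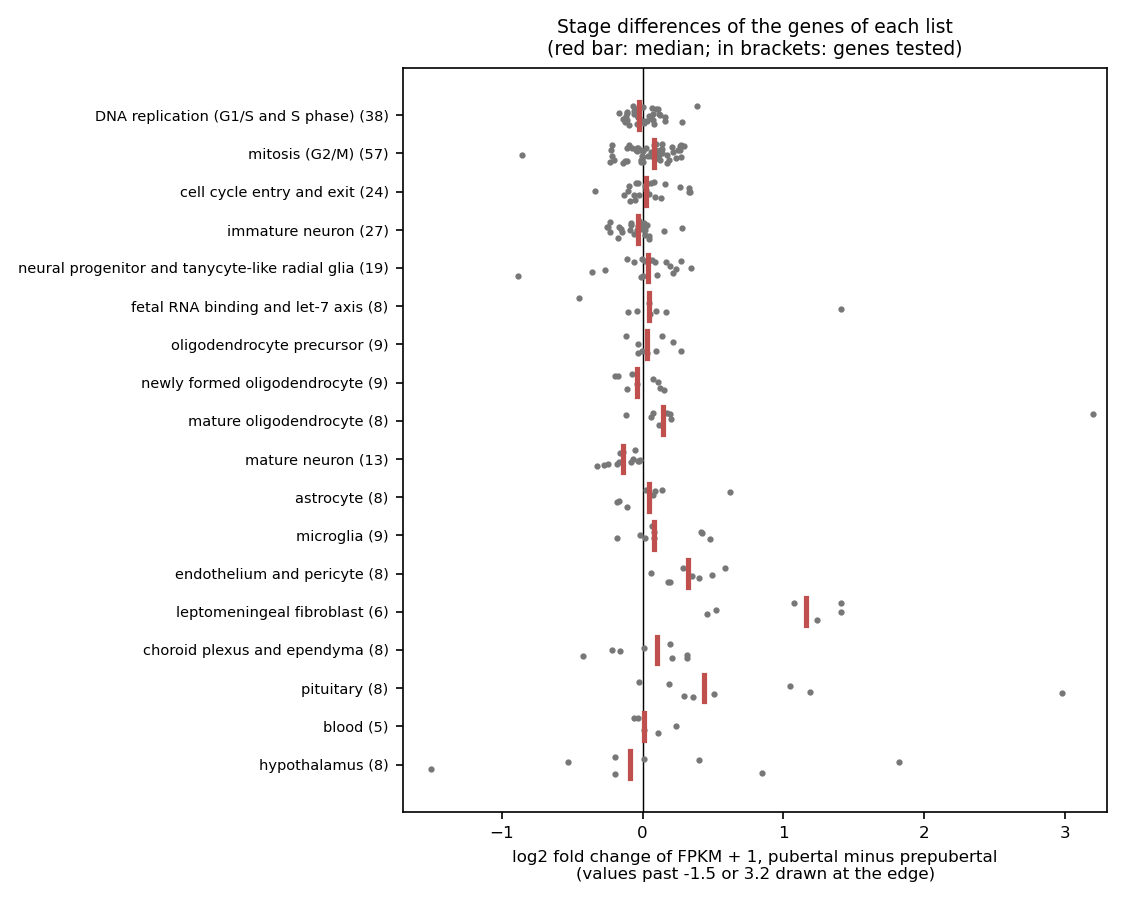
Log2 fold change of FPKM + 1, pubertal minus prepubertal (horizontal axis), of each tested gene (grey points, those beyond the axis drawn at its edge) in 18 lists, with the number of genes tested in brackets and the median as a red bar. The first 6 lists, of division, neuron, progenitor and fetal genes, have medians between -0.03 and 0.08, and the leptomeningeal list has a median of 1.16.

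Among glia, the 9 tested genes for oligodendrocyte precursors summed to between 223.5 and 240.8 FPKM in pubertal and between 213.8 and 229.8 FPKM in prepubertal libraries. They had a median log2 fold change of 0.03 and 0 genes at an unadjusted p under 0.05 in limma. PTPRZ1 weighed most in this sum, with a mean of 99.2 FPKM over the 6 libraries. The defining genes OLIG1 and OLIG2 were not analysed here. The 9 genes for newly formed oligodendrocytes summed to between 220.6 and 280.2 FPKM and between 217.1 and 284 FPKM, with 0 genes at an unadjusted p under 0.05. BCAS1 weighed most here, with a mean of 113 FPKM. For microglia 3 of 9 genes, the C1q chains C1QA, C1QB and C1QC, were higher at an unadjusted p under 0.05, 33.3% against 3.51% of all genes. The median log2 fold change of the 9 genes was 0.08, with 7 above 0 and 2 below, P2RY12 at -0.18 and AIF1 at -0.02. The list summed to between 441 and 524.3 FPKM and between 413.8 and 465.6 FPKM, which overlap.

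The summed markers of the meninges and of the pituitary, which border the hypothalamus, did not overlap between the stages, with 0 adjusted calls in limma. The 6 leptomeningeal genes summed to between 110.8 and 262.1 FPKM in pubertal and between 42.49 and 82.54 FPKM in prepubertal libraries, and 5 were higher at an unadjusted p under 0.05 in limma, 83.3% against 3.51% of all genes. The 8 pituitary genes, led by CGA, summed to between 60.38 and 74.3 FPKM and between 11.48 and 24.68 FPKM. Of these, 3 were higher at an unadjusted p under 0.05 in limma, 37.5% of the list against 3.51% of all genes. In this list 7 log2 fold changes were above 0 and 1 below, LHB at -0.03. For choroid plexus and ependyma the sum of pubertal replicate 3 stood apart, at 373 FPKM against 71.3 to 125.2 FPKM in the other libraries. TTR alone held 309 FPKM of it, and 53.4 FPKM in prepubertal replicate 1, so this sum follows 1 gene. Of the 8 genes 5 had a log2 fold change above 0 and 3 below. The part of such tissue in the members' values was not tested. Without pubertal replicate 3 the 8 tested members again had 0 adjusted and 0 unadjusted p under 0.05 in limma. The median log2 fold changes of the leptomeningeal and pituitary lists were then still 0.79 and 0.42, so leaving out this library does not test such tissue.

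Within 10 kb, the narrower window that the study screened, it lists lncRNA loci beside IGF2BP1 and NES, and beside no other member. The deposited sequences of their transcripts show why the values of the first are summed and how short the second is. For XLOC_957527, beside IGF2BP1, the 5′ end of each transcript is shown up to the start of a run of 785 bases that both contain, with the bases before this run in capitals. For XLOC_1679060, beside NES, the whole transcript of 260 nt is shown, with its longest frame from ATG to a stop in capitals.
TCONS_01961607: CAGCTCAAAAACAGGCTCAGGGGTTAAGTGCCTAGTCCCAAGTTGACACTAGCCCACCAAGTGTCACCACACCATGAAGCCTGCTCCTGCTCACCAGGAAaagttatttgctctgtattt
TCONS_01986445: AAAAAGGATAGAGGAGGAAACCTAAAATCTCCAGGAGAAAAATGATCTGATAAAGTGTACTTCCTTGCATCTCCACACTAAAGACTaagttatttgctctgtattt
TCONS_03577401: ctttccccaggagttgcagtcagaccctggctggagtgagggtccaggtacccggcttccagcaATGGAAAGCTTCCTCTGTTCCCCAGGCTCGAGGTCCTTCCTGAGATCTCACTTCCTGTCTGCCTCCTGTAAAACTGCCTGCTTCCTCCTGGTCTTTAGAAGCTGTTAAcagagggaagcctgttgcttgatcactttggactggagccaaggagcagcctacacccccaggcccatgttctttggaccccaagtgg

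The transcripts of XLOC_957527 have 100 and 86 bases before the shared run among 886 and 871 nt, so most fragments could come from either. Summed over both, the locus had 0.709, 0.746 and 0.447 FPKM in pubertal and 1.70, 1.37 and 1.94 FPKM in prepubertal goats. The stages did not overlap, as for 3.75% of 2534 loci that were lower, and the unadjusted p was under 0.05, as for 1.66% that were lower. The log2 fold change was -0.71 (95% interval -1.16 to -0.26, adjusted p = 0.926, limma), while the IGF2BP1 values overlapped. The paper proposes IGF2BP1 as a cis target and GnRH1 as a trans target of this locus. It also reports qRT-PCR on the same goats as a check of its sequencing, with this locus among the primers. GNRH1 was higher in pubertal goats without overlap, as were 5.91% of all genes (log2 fold change 0.85, adjusted p = 0.779, limma). An action of the locus on either gene was not tested. XLOC_1679060 had 2.18 FPKM in pubertal replicate 1 and was listed at 0 in the other 5 libraries, and NES in pubertal replicate 1 was at 10.6 FPKM, within the range of the others.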

How the data were processed

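RNA was sequenced as paired ends on an Illumina HiSeq. The authors aligned reads with TopHat, assembled transcripts with Cufflinks 2.1.1 and Scripture, and deposited FPKM for each transcript and library. They also deposited a Cuffdiff comparison of the stages, whose fold changes and p-values were not used. The genome build is not given in the sources used here, so no coordinates are printed. Of the per-sample columns, 0 were left unused.

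FPKM were summed by gene, and 19083 of 20225 genes (94.4%) matched a symbol in a RefSeq table of goat genes (ARS1.2). Stages were compared on log2(FPKM + 1) with limma 3.58.1 in R 4.3.3 (variance trend, two-sided) over all genes with a mean of at least 0.1 FPKM, adjusted by Benjamini-Hochberg at 0.05, and likewise for transcripts and lncRNA loci. The fit was checked on simulated data. Exact tests used scipy 1.17.1. Alternatives were a pseudocount of 0.1, other minimums, other scalings, no trend, a replicate block, only the most abundant transcript, and each library left out. Labels name the goats of a stage as separate samples.

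The members and lists were chosen with earlier results of these data known. The rule for naming took the members, the genes of each list with an unadjusted p under 0.05 and no overlap (at most 3 per direction), the leading gene of a cell type list, and the 3 genes most like MKI67 and DCX. Of the cell type lists, given mainly by counts and sums, SLC32A1, ALDH1L1, VWF, RGS5, DCN, COL1A1, COL1A2, RSPH1, TSHB, PITX1 and most leading genes met the rule but are not described. The genes CDK6, RBL1, ANLN, CCND2, TMSB10, STMN1, HOPX, IGF2BP2, LIN28A, HMGA2, OLIG1, OLIG2 and AVP were added once their values or absence had been seen. The same holds for P2RY12, AIF1, LHB, TUBB3, TUBB2B and CD24.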

Additional observations from a re-analysis of the deposited data

How the results depend on the processing

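Depth is unknown, a stage has 3 goats, and MKI67 and IGF2BP1 lie near the minimum of 0.1 FPKM. No member gene had an adjusted p under 0.05 in limma under any alternative run (0 genes each).

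Replicate numbers did not pair the goats: same-numbered libraries deviated with an r of -0.0286, -0.107 and 0.0876, and not every library deviated most with its own number. With the replicate block, 1 gene of the whole table had an adjusted p under 0.05 instead of 0, and the members again had 0.

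Leaving out each library gave 0 to 4 genes with an adjusted p under 0.05 (4 without pubertal replicate 2, 1 without prepubertal replicate 2 and 1 without prepubertal replicate 3). Genes higher at an unadjusted p under 0.05 ran from 338 (without prepubertal replicate 1) to 984 (without pubertal replicate 1), and lower genes from 164 to 1239 for the same libraries. Member genes and member transcripts at an unadjusted p under 0.05 ran from 0 to 1 each. Lower genes numbered 170 when transcripts under 200 nt were left out and libraries rescaled.

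Small log2 fold changes moved, and several turned sign. Quantile normalization gave -0.0046 for MKI67 (-0.010 as a transcript), 0.0031 for PCNA (0.011 as a transcript), and medians of -0.00050 for mitosis and -0.0071 for cycle entry and exit. Leaving out transcripts under 200 nt with rescaling gave 0.043 for PCNA and its transcript, 0.014 for DCX, and medians of 0.021 for replication and 0.068 for cycle entry and exit. The most abundant transcript alone gave 0.11 for CDK1 and 0.11 for DCX, and a minimum of 1 FPKM gave an immature neuron median of -0.072. Leaving out each library gave -0.016 to 0.085 for MKI67, -0.15 to 0.032 for CCNB1, -0.074 to 0.054 for PCNA, -0.096 to 0.026 for DCX and -0.19 to 0.031 for the CDK1 transcript XM_005699056.1, with medians of -0.049 to 0.012 for replication, 0.021 to 0.078 for mitosis and -0.0057 to 0.027 for cycle entry and exit. Among values that kept their sign but moved by over 1.5 times were those of CDK1, -0.29 (without pubertal replicate 1) to -0.10 (without pubertal replicate 3), NES, 0.011 (without prepubertal replicate 1) to 0.28 (without prepubertal replicate 3), MYC, 0.20 (without pubertal replicate 3) to 0.40 (without pubertal replicate 2), and the median of the fetal list, 0.016 (without prepubertal replicate 1) to 0.097 (without pubertal replicate 1), and of the precursor list, 0.025 (without pubertal replicate 1) to 0.11 (without pubertal replicate 3). The progenitor median ran from -0.055 (without pubertal replicate 3) to 0.089 (without pubertal replicate 1). The cause was not tested.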
